A study of Mus musculus with 38 samples.

Results

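Regions that carried H3K4me3 together with H3K9me3, and no H3K27me3, were examined in mouse liver. They were chosen from the peak lists themselves: an H3K4me3 peak of the male list had to share at least 1 bp with a male H3K9me3 island and none with a male H3K27me3 island, the same was done with the female lists, and regions found in both sexes were kept. This gave 139 regions of the 14233 H3K4me3 regions present in both lists. The study mapped 6 histone marks by chromatin immunoprecipitation and sequencing (ChIP-seq) in whole livers of CD-1 mice, an outbred stock, 8 weeks old, with no treatment named. The groups used here were male and female livers, with 4 male and 3 female libraries for H3K4me3, 2 and 2 for H3K9me3 and for H3K36me3, 3 and 3 for H3K27me3 and for H3K27ac, and 4 and 3 for H3K4me1. Each mark and sex had 1 list made from its pooled libraries, so the files carry no replicate error, no test was run, and intervals on shares are exact Clopper-Pearson 95% intervals that cover counting error only. Members that neighbour each other in 1 island are not independent, which makes those intervals too narrow.

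H3K4me3 is deposited at active and poised promoters, where the CXXC proteins of its methyltransferase complexes read unmethylated CpG. H3K9me3 is written by SETDB1 and the SUV39H enzymes, is bound by HP1 proteins and marks constitutive heterochromatin, silenced retroelements and the coding exons of zinc finger gene clusters. The marks are usually apart. H3K27ac accompanies active promoters and enhancers, H3K4me1 flanks them, H3K36me3 is laid down over gene bodies by SETD2 travelling with RNA polymerase II, and H3K27me3 is the mark of Polycomb silencing. Liver tissue holds several cell types, so whether the marks of a region lay on the same chromatin or in different cells cannot be told apart. The tissue label was checked at marker promoters that could be placed. H3K4me3 and H3K27ac were both present in both sexes at 6 of 6 hepatocyte promoters (Alb, Apoa1, Apob, Hnf4a, Fgb and Tat). The pair was present at 0 of 7 placed promoters among 21 markers of macrophages, endothelium, stellate cells, bile duct and lymphocytes. Of those 7, Stab2 (endothelium) and Ptprc (lymphocytes) had H3K27ac in both sexes, and Lrat (stellate cells) had H3K4me3 in both sexes.

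A known promoter lay inside 8 of the 139 members (5.76%), against 4506 of 11444 H3K4me3 regions with neither H3K9me3 nor H3K27me3 (39.4%). The share was 23.1% in H3K4me3 regions with H3K27me3 and no H3K9me3. In those with both H3K9me3 and H3K27me3 it was 2 of 33 (6.06%), like that of the members. A promoter counts here only if an IgG control read matched its RefSeq sequence (build GRCm38.p6) exactly and so gave it a position in mm9, the build of the peak lists; 44.4% of the promoters in the table could be placed. Sharing a region with an H3K9me3 island did not put every start under it: the promoter entry lay wholly in H3K9me3 in both sexes at 4 of the 8 (Orc2, Tmem267, Gm36445 and A430005L14Rik), was reached in 1 sex alone at 2 (Zmym6 in females, Nhlrc1 in males) and lay outside it in both sexes at 2 (Resf1 and Zfp263). The 250 bases before the start of 4 genes with known roles are shown to cover each of these cases. Capitals mark CpG dinucleotides. Orc2 encodes a subunit of the origin recognition complex (minus strand, chr1:58561955-58562204), Zmym6 a MYM-type zinc finger protein (plus strand, chr4:126754378-126754627), Resf1 a factor that works with SETDB1 in silencing retroelements (plus strand, chr6:149257687-149257936) and Zfp263 a C2H2 zinc finger protein (plus strand, chr16:3743850-3744099).
Orc2: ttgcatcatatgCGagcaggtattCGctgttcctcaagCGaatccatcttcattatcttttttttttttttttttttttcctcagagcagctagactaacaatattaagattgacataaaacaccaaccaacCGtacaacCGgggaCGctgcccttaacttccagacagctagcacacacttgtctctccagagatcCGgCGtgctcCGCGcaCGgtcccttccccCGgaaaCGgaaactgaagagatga
Zmym6: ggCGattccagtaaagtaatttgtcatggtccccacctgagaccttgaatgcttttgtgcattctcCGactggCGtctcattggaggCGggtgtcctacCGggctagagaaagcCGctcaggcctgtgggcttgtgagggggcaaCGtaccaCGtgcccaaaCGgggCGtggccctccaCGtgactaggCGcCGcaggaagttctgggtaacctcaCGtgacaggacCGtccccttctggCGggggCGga
Resf1: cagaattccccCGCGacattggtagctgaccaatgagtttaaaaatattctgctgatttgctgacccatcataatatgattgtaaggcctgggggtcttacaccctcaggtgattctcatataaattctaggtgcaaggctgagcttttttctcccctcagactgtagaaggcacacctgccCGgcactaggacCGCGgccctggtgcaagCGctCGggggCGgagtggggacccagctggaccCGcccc
Zfp263: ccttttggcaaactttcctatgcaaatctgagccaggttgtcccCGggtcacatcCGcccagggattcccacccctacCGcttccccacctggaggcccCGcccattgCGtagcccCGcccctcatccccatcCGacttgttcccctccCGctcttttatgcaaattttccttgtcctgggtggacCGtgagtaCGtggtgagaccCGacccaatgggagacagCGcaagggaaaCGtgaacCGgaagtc
The Orc2 sequence holds 13 CpG, Zmym6 17, Resf1 9 and Zfp263 14. Over the whole 300-base entries, the 8 member promoters had a median of 23.5 CpG and a range of 13 to 43, against a median of 7 over all 32851 promoters of the table. The letters GGGCGG (the GC box, either strand) were found in 6 of the 8 and in 35.7% of all promoters, CCAAT (either strand) in 5 of the 8 and in 37.4% of all, CCGGAAG (an ETS factor motif, either strand) in 2 of the 8 and in 8.86% of all, and TATAAA (either strand) in 1 of the 8 and in 13.6% of all. No motif of the 4 contains another, and a match describes letters only. The 8 promoters were taken from H3K4me3 regions, while the table includes promoters without H3K4me3. These CpG and motif values therefore do not compare members with other H3K4me3 promoters, a comparison that was not made.

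The remaining members have no such sequence to show. Where no promoter could be placed, the only sequence at hand was that of the IgG reads, and the longest run of overlapping reads is shown for the members of 2 H3K9me3 islands that hold several members each, with capitals again reserved for CpG (plus strand, mm9). The first lies at chr8:46128881-46128936, in the interval that holds Fat1, and the second at chr2:76555112-76555180, in the interval that holds Ttn. Whether they lie inside these genes was not determined.
Fat1 interval: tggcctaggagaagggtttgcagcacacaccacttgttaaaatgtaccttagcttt
Ttn interval: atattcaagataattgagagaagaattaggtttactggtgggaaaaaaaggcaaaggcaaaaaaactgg
Neither run holds a CpG. Over all IgG reads inside the regions, CpG made 1.66 per 100 bases in the 139 members and 2.82 in regions with neither repressive mark, and the GC content was 43% in members and 48.6% in regions with neither mark. In regions with H3K27me3 and no H3K9me3 these values were 3.92 and 52.4%. Regions with both repressive marks were lower than the members, at 1.07 and 41.1%.

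The share of H3K4me3 peaks in this state was small in either sex. The male list had 528 such peaks of 16018 (3.3%, interval 3.03 to 3.58%) and the female list 860 of 18942 (4.54%, interval 4.25 to 4.85%). Many had no counterpart in the other sex: 232 of the 528 male peaks (43.9%) overlapped no female H3K4me3 peak, and 656 of the 860 female peaks (76.3%) overlapped no male one. Those unshared peaks were weak, with a median of 40 tags in the male list and 25 in the female list. A further 118 male and 50 female peaks met an H3K4me3 peak of the other sex that lacked H3K9me3 and H3K27me3; these had medians of 183.5 tags (male) and 164 tags (female), and 94.1% of the male and 80.0% of the female ones carried H3K27ac in the same sex. Another 34 male and 7 female peaks met an H3K4me3 peak with H3K27me3 in the other sex. What remained were 144 male and 147 female peaks, joined into the 139 regions, of which 127 had 1 peak in each list. H3K9me3 overlap was the threshold of the rule, and most peaks lay well past it: 441 male (83.5%) and 792 female (92.1%) peaks were wholly inside an island, and 7 in each list touched one by under 100 bp. Just outside the threshold, 10 male and 12 female peaks without H3K27me3 lay within 100 bp of an H3K9me3 island. Within 1000 bp outside, there were 118 male peaks with a median of 281.5 tags and 90 female peaks with 231.5; among peaks that overlapped an island by under 1000 bp without lying wholly inside, there were 62 male with a median of 142.5 tags and 54 female with 78.

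H3K27ac and H3K4me1 were mostly missing from the members, while H3K36me3 was common. H3K27ac peaks were present in both sexes at 28 of 139 members (20.1%, interval 13.8 to 27.8%), against 11085 of 11444 regions with neither repressive mark (96.9%, interval 96.5 to 97.2%). H3K4me1 was also present at 28 of 139 members (20.1%), against 96.2% of regions with neither mark. H3K36me3, the elongation mark, overlapped 78 of 139 members in both sexes (56.1%, interval 47.5 to 64.5%). Among regions with neither mark it overlapped 2879 of 11444 (25.2%, interval 24.4 to 26.0%). For each of the 3 marks an overlap of at least 1 bp was counted. None of these 3 marks took part in the choice of members.

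In combination, the marks gave a pattern that was rare outside the members. H3K36me3 in both sexes with neither H3K27ac nor H3K4me1 in either sex was seen at 68 of 139 members (48.9%) and at 1 of 11444 regions with neither repressive mark (0.00874%); over all 14233 H3K4me3 regions there were 70. Another 18 members (12.9%) had none of the 3 marks in either sex, against 18 regions with neither repressive mark (0.157%). That share was 0.956% in regions with H3K27me3 and no H3K9me3, and 21.2% in regions with both repressive marks, above that of the members. All 3 marks in both sexes were seen at 5 members (3.6%, interval 1.18 to 8.19%), against 24.6% of regions with neither repressive mark. Regions with H3K27me3 and no H3K9me3, the Polycomb counterpart, differed from the members on each mark: of these 1360 regions, H3K27ac was present in both sexes at 46.3%, H3K4me1 at 91.5% and H3K36me3 at 0.809%. The 33 regions with both repressive marks had H3K27ac at 18.2%, H3K4me1 at 48.5% and H3K36me3 at 0 of 33 (interval up to 10.6%).

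**Figure D1:**
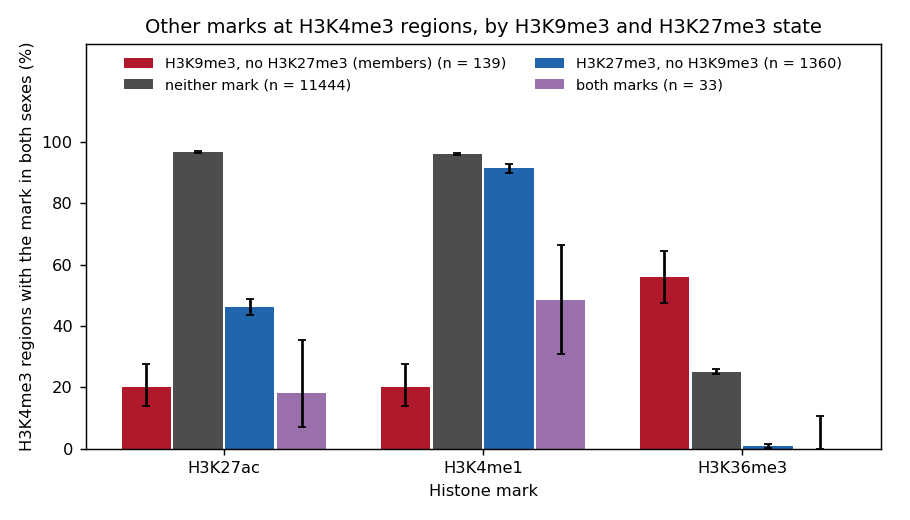
Share of H3K4me3 regions (%, vertical axis) that carried H3K27ac, H3K4me1 or H3K36me3 in both sexes, for the 139 members and 3 other sets; lines are exact 95% intervals for counting error. The members have few regions with H3K27ac (20.1%) or H3K4me1 (20.1%) and the highest share with H3K36me3 (56.1%) of the 4 sets.

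H3K27ac divided the members into a smaller and a larger group. The 36 members with an H3K27ac peak in either sex had a median of 260.5 H3K4me3 tags in the male list and 247.5 in the female list, and the 103 members without had 49 in the male list and 36 in the female list. For comparison, all 139 members had medians of 65 (male) and 46 (female), and regions with neither repressive mark 333 (male) and 327 (female). Regions with H3K27me3 and no H3K9me3 had 91 (male) and 78 (female), and regions with both repressive marks 61 (male) and 53 (female). The fold over control had medians of 5.8 (male) and 7.82 (female) in the 139 members and 18 (male) and 30.1 (female) in regions with neither mark, and the median width was 1398 bp in members and 2181 bp in those regions. With H3K27me3 and no H3K9me3 the median fold was 8.61 (male) and 12.2 (female) and the median width 1434 bp. With both repressive marks these medians were 6.83 (male), 7.88 (female) and 1375 bp, so weak and narrow H3K4me3 was not particular to the members. H3K4me1 was present in both sexes at 25 of the 36 members with H3K27ac (69.4%) and at 3 of the 103 without (2.91%), and H3K36me3 at 8 of the 36 (22.2%) and 70 of the 103 (68%). Pooled over IgG reads, CpG made 3.22 per 100 bases in members with H3K27ac and 1.1 in those without. Members dense in control reads weigh more in these pooled values. All 8 placed promoters fell among the 36. The H3K9me3 islands, which the rule used, had median widths of 13 kb (male) and 15.8 kb (female) at members with H3K27ac and 33.6 kb (male) and 36 kb (female) at members without. Of the 36 with H3K27ac, 20 (male) and 19 (female) lay wholly inside their island, against 100 (male) and 101 (female) of the 103.

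**Figure D2:**
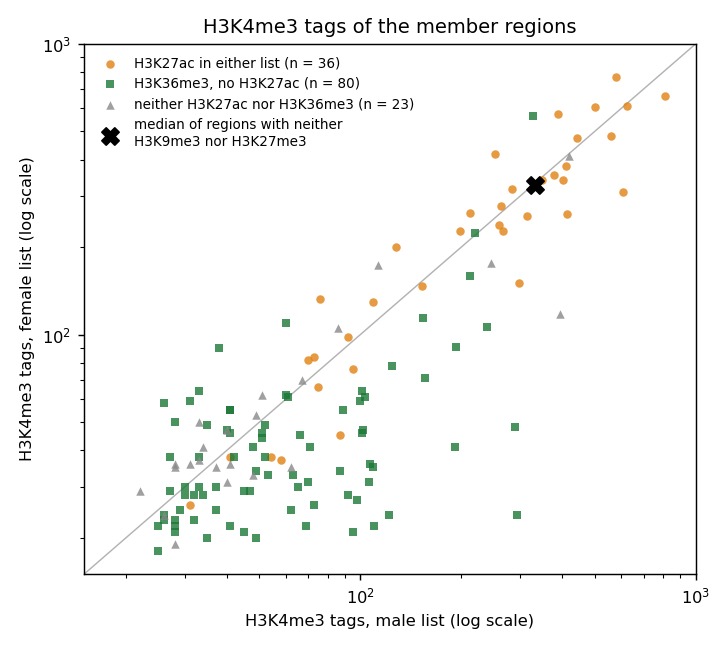
H3K4me3 tags of each member in the male list (horizontal axis) and the female list (vertical axis), both on log scales, by the presence of H3K27ac and H3K36me3; the grey line marks equal tags. Members with H3K27ac (medians 260.5 male and 247.5 female) lie toward the top right, near the median of regions with neither repressive mark, and members without it mostly lie below 100 tags.

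The larger group rests on weak H3K4me3 peaks. The authors' false discovery rate had a median of 54.7% (male) and 21.5% (female) over the 103 members without H3K27ac, against 2.33% (male) and 1.82% (female) over regions with neither repressive mark. With peaks kept only at a rate of at most 5% in both lists, a choice made after seeing the data, 3 of the 103 and 28 of the 36 remained, and 26 of these 31 (83.9%) had H3K27ac in both sexes. At that rate 9819 of 11444 regions with neither repressive mark remained (85.8%), 98.4% of them with H3K27ac in both sexes. The part that peak strength plays in the mark shares was not tested, but regions of like rank can be set side by side, in bands also chosen after seeing the data. Among H3K4me3 peaks in the top 50% of the male list by score, H3K27ac was present in both sexes at 20 of 20 members and at 99.7% of 7393 regions with neither repressive mark. In the band from 75 to 90%, where 100% is the weakest, it was present at 2 of 48 members (4.17%) and at 88.1% of 1009 regions with neither mark. In the weakest 10% it was present at 0 of 46 members and at 85.9% of 440 regions with neither mark. H3K36me3 did not keep 1 direction over the bands. In the top 50% it was present in both sexes at 5 of 20 members (25%) and at 33.9% of regions with neither mark. From 50 to 75% it was present at 64% of members and 8.8% of regions with neither mark, from 75 to 90% at 72.9% of members and 9.81% of those regions, and in the weakest 10% at 47.8% of members and 9.55% of those regions.

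**Figure D3:**
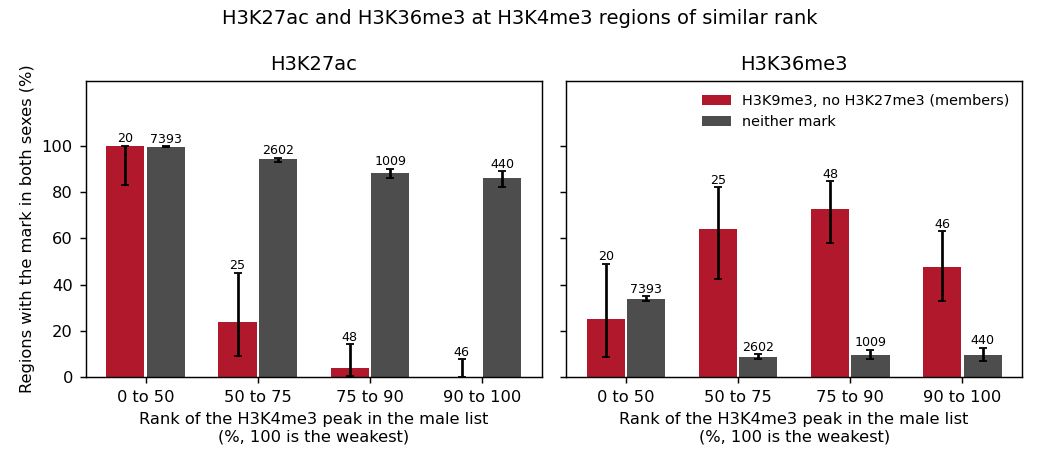
Share of regions (%, vertical axis) with H3K27ac (left) or H3K36me3 (right) in both sexes, by rank of the H3K4me3 peak in the male list (horizontal axis, 100% is the weakest), for members and for regions with neither H3K9me3 nor H3K27me3; lines are exact 95% intervals and the numbers above the bars are regions. In the top 50% both sets have H3K27ac almost throughout, and from 75 to 90% the members have it at 4.17% and the other regions at 88.1%; H3K36me3 is lower in members in the top 50% and higher in the 3 weaker bands.

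The members with most H3K4me3 were strong peaks with acetylation. Of the 8 members with most tags in the weaker sex, 7 had H3K27ac in at least 1 sex. The Tmem267 promoter, of a transmembrane protein gene, lay in a member at chr13:120276205-120280793 with 810 tags in males and 662 in females and H3K27ac in males alone; the relative IgG density there was 3.43 times the autosomal mean. The member at chr13:65341384-65343968, which holds the promoter of the predicted gene Gm36445 and lies in an interval with Zfp369, had 579 tags in males and 770 in females. Zfp263, the only placed member promoter from the gene lists, had 560 tags in males and 484 in females at chr16:3742867-3745844, with H3K27ac, H3K4me1 and H3K36me3 in both sexes. Its H3K9me3 islands were 8.0 kb (male) and 7.6 kb (female) wide and covered 21.7% of the region in males and 48.5% in females.

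At the other promoters, the share of the H3K4me3 region under H3K9me3 varied widely. Resf1 at chr6:149256765-149260413 had 609 tags in males and 309 in females, all 3 active marks in both sexes, and H3K9me3 over 11.9% of the region in either sex. Orc2 at chr1:58560610-58562904 had 348 tags in males and 340 in females, again with all 3 marks in both sexes, and H3K9me3 over 74.3% of it in males and 91.7% in females. Zmym6 at chr4:126753875-126755527 had 213 tags in males and 262 in females, with H3K9me3 over 7.56% of it in males and the whole of it in females. Nhlrc1, the gene of the ubiquitin ligase malin, had 92 tags in males and 98 in females at chr13:47109224-47110829, with H3K27ac in both sexes and H3K36me3 in neither. The 2 members at chr8:19892343-19893408 and chr8:20019662-20020714 lay in 1 interval of 2800 kb with 13 protein-coding genes. Some of these are beta-defensin genes, which encode antimicrobial peptides. Whether either member lies near a beta-defensin gene was not determined. These 2 members had 390 and 501 tags in males and 573 and 609 in females, with H3K27ac and H3K4me1 in both sexes. The promoter of the unnamed gene A430005L14Rik lay in chr4:153330531-153332992, with 443 tags in males and 473 in females and the same 2 marks. The exception among the 8 members with most tags was chr4:145036107-145040905, with 418 tags in males, 411 in females, no H3K27ac, H3K4me1 or H3K36me3 in either sex, and the highest relative IgG density of all members, 5.8 times the autosomal mean. Signal over control there was low for its tags, with an H3K4me3 fold of 2.73 in males and 9.73 in females.

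Members gathered in runs inside long H3K9me3 islands. In the male list 109 islands held the members, and 15 of them held 2 or more, accounting for 45 members; in the female list 112 islands held them, 15 with 2 or more. Another member lay within 100 kb of 70 of the 139 (50.4%). The largest run was 7 members in 1 island at chr8:46084400-46147599 in males and chr8:46090000-46141599 in females, between the placed promoters of Fat1 and a predicted gene, an interval that also holds Mtnr1a, a melatonin receptor gene. Fat1 encodes a giant atypical cadherin. The 7 members had 220, 63, 61, 238, 42, 32 and 48 tags in males and 224, 33, 61, 106, 38, 23 and 41 tags in females. All 7 carried H3K36me3 in both sexes and none carried H3K27ac or H3K4me1. This island had the highest fold over control of the 6 male islands with 3 or more members, 4.74 in males and 5.94 in females, and its 7 members share those values. Ranked by the lower of both sexes' folds, they come after 2 other members.

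H3K27ac was missing from all members of 4 of the 6 male islands with 3 or more members, the Fat1 island among them. The 4 members at chr2:76547630-76564031 lay in the interval that holds Ttn, the gene of the sarcomere protein titin, and Plekha3; they had 60, 26, 38 and 40 tags in males and 110, 58, 90 and 47 in females, all with H3K36me3 in both sexes. The 4 members at chr9:22071929-22084918 lay between the placed promoters of Zfp809, which silences retroviruses in mouse embryonic cells, and Zfp810. They had 28, 27, 122 and 33 tags in males and 50, 38, 24 and 64 in females. H3K36me3 overlapped all 4 in males and 2 of them in females. The 3 members at chr7:13428287-13434578, in the interval that holds Zfp110, had 106, 101 and 26 tags in males and 31, 64 and 24 in females. All had H3K36me3 in both sexes. On chromosome 18, 6 members lay in 1 male island of 160 kb, which H3K36me3 covered almost from end to end in the male list; 3 of the 6 had H3K27ac, and the strongest, chr18:69680835-69685170, had 298 tags in males and 151 in females. The sixth island, chr8:117595200-117701999, held 3 members, 1 of them with H3K27ac (chr8:117683011-117684694, 70 tags in males and 82 in females). Over all H3K9me3 islands with members, 79 of 109 male islands (72.5%) and 73 of 112 female islands (65.2%) touched H3K36me3, against 13.7% of all 10875 male and 6.81% of all 17626 female H3K9me3 islands. The islands with members were also wider, with medians of 21.2 kb against 14.4 kb over the male list and 24 kb against 10.8 kb over the female list, and a wider island can touch more.

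**Figure D4:**
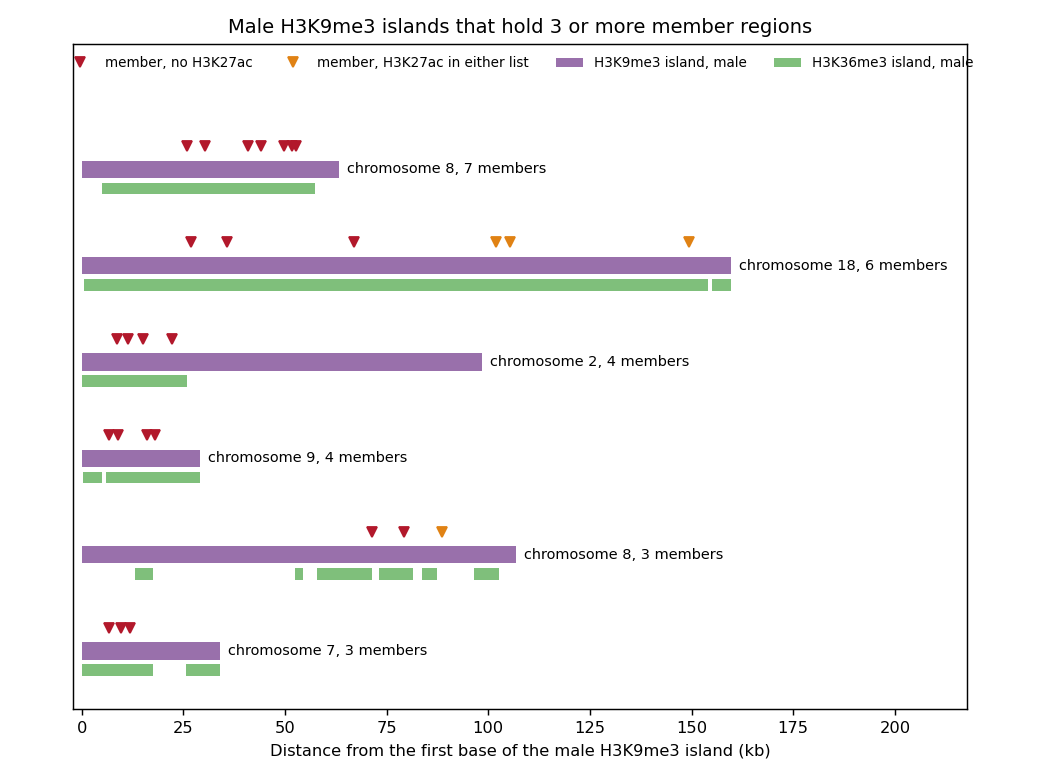
Male H3K9me3 islands that hold 3 or more members, drawn from the first base of the island (horizontal axis, kb), with male H3K36me3 islands below them and members above as triangles. The run of 7 on chromosome 8 (Fat1 interval) and the run of 4 on chromosome 2 (Ttn interval) hold no member with H3K27ac; H3K36me3 covers 82.9% of the first island and 26.4% of the second.

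The members deepest inside H3K9me3 also carried H3K36me3. The 5 whose nearest island edge was farthest, taking the sex with the shorter distance, had H3K36me3 in at least 1 sex and no H3K27ac, and their H3K4me3 was weak. The member at chr13:114707283-114708641, in an interval whose only protein-coding gene is Arl15, lay 62.6 kb (male) and 47.7 kb (female) from the nearest island edge, with 41 tags in males and 55 in females. The member at chr8:117360204-117361001, in an interval with Wwox and Maf, lay 54.6 kb (male) and 53.0 kb (female) from the edge of islands of 252 kb (male) and 118 kb (female), with 32 tags in males and 28 in females. In the same interval, chr8:117666173-117667253 and chr8:117674077-117674862 lay in 1 island in each sex and had 28 and 25 tags in males and 23 and 22 in females. The fifth, chr18:69616566-69617247, belongs to the run on chromosome 18 and had 30 tags in males and 28 in females. The 2 members with a higher H3K9me3 fold than the Fat1 run, by the lower of both sexes' folds, lay in short islands. In a single sex other members were higher, up to 11.0 in males at chr12:20235551-20240361 (4.37 in females) and 10.16 in females at chr7:12595637-12596472 (3.74 in males). At chr5:109985165-109988712 the islands were 8.4 kb (male) and 8.0 kb (female), with folds of 7.92 (male) and 6.14 (female), and the H3K4me3 peak, of 414 tags in males and 261 in females, had H3K27ac in both sexes. At chr12:70754611-70755752, in the interval of Sos2, a guanine nucleotide exchange factor gene, the islands were 1.6 kb (male) and 0.8 kb (female) wide, with folds of 5.74 (male) and 8.15 (female), 328 tags in males and 567 in females, and a relative IgG density of 3.4.

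Zinc finger genes were common around the members. C2H2 zinc finger genes of the KRAB family lie in tandem clusters and bind retroelements, and their coding exons are a known place where H3K9me3 and H3K36me3 coexist. Each member was set between the nearest placed promoters on either side, and RefSeq gene order gave the protein-coding genes between them; this could not be done for 9 members on chromosome 18, whose promoters were not used here, and for 3 members beyond the last placed promoter of their chromosome. Of the other 127 members, 57 (44.9%, interval 36.1 to 54.0%) lay in an interval with at least 1 gene with a name starting with Zfp, Zkscan, Zscan, Zim or Zik, or the genes Rsl1 and Rslcan18, against 682 of 11074 regions with neither repressive mark (6.16%, interval 5.72 to 6.62%) and 54 of 1320 regions with H3K27me3 and no H3K9me3 (4.09%). Intervals were wider around members, with medians of 262 kb against 169 kb, but with intervals of at most 5 genes the counts were 44 of 102 members (43.1%) and 438 of 9053 regions with neither mark (4.84%). Counted once per interval, 42 of 91 intervals with members (46.2%) held such a gene, against 5.12% of 7926 intervals around regions with neither mark.

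Of the 57 members with a zinc finger interval, 48 were without H3K27ac. A zinc finger interval held 48 of 96 bracketed members without H3K27ac (50%) and 9 of 31 with it (29.0%). In the smallest intervals, of 1 or 2 genes, the order turned, with 15 of 43 members without H3K27ac (34.9%) and 7 of 15 with it (46.7%). Of the 176 zinc finger genes with a placed promoter, 153 (86.9%) had H3K4me3 there in both sexes, against 44.1% of all 12871 genes with a placed promoter, 5 (2.84%) had H3K9me3, against 2.33% of all, and 1, Zfp263, lay in a member, against 8 of all (0.0622%). Chromosome 7 held 19 of the 57 members with such an interval, including 4 at chr7:30560588-30719649 among 8 zinc finger genes (Zfp84, Zfp30, Zfp790, Zfp940, Zfp420, Zfp27, Zfp383 and Zfp74), with 41, 66, 124 and 65 tags in males and 22, 45, 78 and 30 in females, H3K36me3 in both sexes and no H3K27ac. On chromosome 4, 6 members lay among Zfp980, Zfp987, Zfp600 and their neighbours; their relative IgG densities were 2.15 to 5.8, so control reads were dense there too, and their part in these peaks was not tested. The acetylated exceptions included chr7:28763193-28765276, between the placed promoters of Zfp974 and Zfp850, with 625 tags in males and 612 in females and no H3K36me3 in either sex. None of the 21 imprinted, 5 germline or 9 heterochromatin-factor genes with a placed promoter had it in a member, counts too small to read against a share of 0.0622%, and 0 clustered protocadherin promoters could be placed.

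A motif of zinc finger coding sequence was matched in IgG reads of 3 members. The linker between successive C2H2 fingers is strongly conserved, and its codons were searched as ACNGGNGANAANCC on both strands of the IgG reads, a search chosen after the neighbourhoods were seen. It was found in 570 of 11201113 reads. Inside H3K4me3 regions it was found in 3 of the 139 members, 7 of the 11444 regions with neither repressive mark, 0 of the 1360 with H3K27me3 and no H3K9me3, and 12 of all 14233. IgG reads cover only a small part of each region, so these counts are floors for the letters alone. The motif is short and the number of matches by chance was not estimated. A match therefore does not show zinc finger coding sequence. The 3 reads are shown in the sense of the motif, which is in capitals, and lie at chr13:66532120-66532154 (minus strand), chr7:30659684-30659718 (plus strand) and chr7:30719325-30719359 (minus strand) in mm9.
Chromosome 13 member: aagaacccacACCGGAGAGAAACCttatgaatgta
Chromosome 7 member, first: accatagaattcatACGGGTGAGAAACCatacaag
Chromosome 7 member, second: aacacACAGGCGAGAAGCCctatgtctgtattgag
All 3 of these members lacked H3K27ac, and H3K36me3 was present in both sexes at both chromosome 7 members and in females alone at the chromosome 13 member. Their H3K4me3 tags were 193, 124 and 65 in males and 91, 78 and 30 in females, in the order of the reads above.

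Members were spread unevenly over the chromosomes. Chromosome 7 held 22 of the 139 members (15.8%, against 7.03% of all H3K4me3 regions), chromosome 8 held 20 (14.4%, against 5.49%) and chromosome 18 held 9 (6.47%, against 2.78%). Chromosomes 6, 14, 15, 16 and 19 held 1 member each. The member on chromosome 15, chr15:72638967-72641619, had 267 tags in males and 228 in females with H3K27ac, and lay in an interval of 15 genes that includes the imprinted genes Trappc9 and Kcnk9. Runs such as that at Fat1 add several members to 1 chromosome, so these counts are not of independent places.

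**Figure D5:**
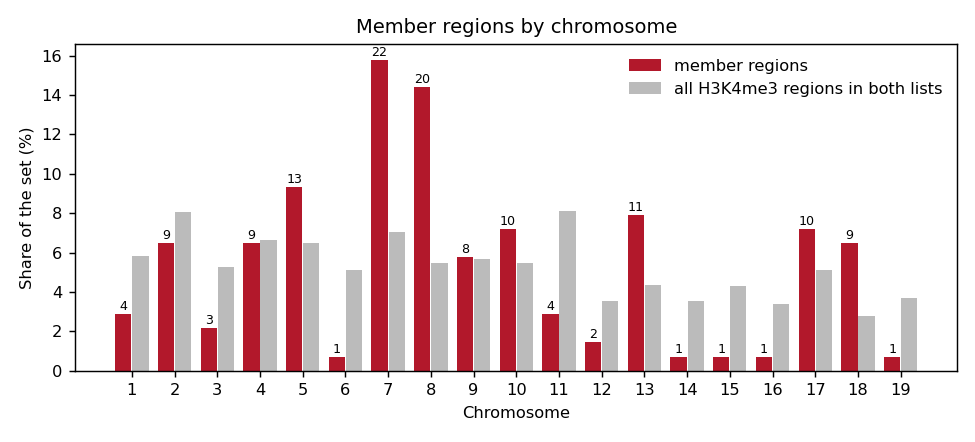
Share (%, vertical axis) of the 139 members and of all 14233 H3K4me3 regions on each chromosome (horizontal axis); the numbers above the member bars are members. Chromosomes 7 (22 members) and 8 (20 members) hold more members than their share of H3K4me3 regions.

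H3K4me3 ratios of the members were mostly toward males. The authors' deposited table gives each peak a sex ratio, log2 of male over female, and a call where the absolute ratio is at least 1 and the p-value, from pooled libraries, is below 0.001. The median ratio was 0.27 over the 139 members, with 108 (77.7%) above 0, against 0.01 over regions with neither repressive mark, with 51.0% above 0. The lean was not particular to the members. Over regions with H3K27me3 and no H3K9me3 the median was 0.16, with 68.2% above 0. Over the 33 regions with both repressive marks it was 0.39, with 87.9% above 0, and 3 of them (9.09%) had a call toward males. A call toward males was present at 7 members (5.04%), against 2.05% of all H3K4me3 regions, and a call toward females at 0 members, against 0.59% of all. The median was 0.36 in the unacetylated members, with 88 of 103 above 0 and all 7 male calls, and 0.07 in the members with H3K27ac, with 20 of 36 above 0. At like ranks in the top 50% of the male list, the median was -0.01 in members and -0.01 in regions with neither mark. From 50 to 75% the medians were 0.56 in members and 0.05 in those regions, and from 75 to 90% 0.44 and 0.13. In the weakest 10% they were 0.23 and -0.01. These differences were not tested, the bands rank peaks by the male list, and the sources used here do not state how the ratios were normalised.

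The 7 members with a male call were all without H3K27ac. All 7 carried H3K36me3 in males and 6 in both sexes, and 5 lay in zinc finger intervals. The member at chr4:145661122-145663986, among Zfp980, Zfp987 and Zfp600, had 192 tags in males and 41 in females, with 1.42 as the ratio of its male peak in the authors' deposited table. The member at chr12:20235551-20240361 had 293 tags in males and 24 in females, with a ratio of 1.26 for the male peak. On chromosome 17, chr17:22127571-22129717 had 110 tags in males and 22 in females, with a ratio of 1.08. Near Zfp946 and Zfp945, chr17:22909679-22915849 had 290 in males and 48 in females, with ratios of 1.21 and 1.04 for its 2 male peaks. In each of these members the call came from the male peak, and the female peak of the same region was called sex-independent. The remaining 3 calls, at ratios of 1.03, 1.0 and 1.16, lay on chromosomes 2, 8 and 10.

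H3K9me3 ratios of the members were mostly toward females. The median log2 ratio of the islands, male over female, was -0.20 over the members and -0.25 over the unacetylated ones, with 37 of 139 above 0. Over all H3K9me3 islands found in both lists, each counted once, the median was -0.01. Members of 1 island share its ratio, so that reference is in another unit, as it is for the calls below. Counted by region as the members were, the median was -0.16 over all H3K4me3 regions with H3K9me3 in both lists, and 0.03 over those with both repressive marks. Calls were few: 1 member lay in an island called toward males (0.719%, against 0.459% of all such islands) and 1 in an island called toward females (0.719%, against 0.262%). The male one was chr8:119104737-119105717, in the interval of Cdyl2, a chromodomain gene whose relatives bind H3K9 methylation, with islands of 94.8 kb (male) and 29.2 kb (female) and 1352 reads in the male and 305 in the female island. The female one was the chromosome 4 member with the densest IgG reads, with 678 reads in the male and 1821 in the female islands. H3K36me3 islands called toward males overlapped 2 members (1.44%), against 0.112% of all H3K4me3 regions, and islands called toward females overlapped 1 (0.719%), against 0.0422%. At each of these 3 members H3K36me3 was present in 1 sex alone, the one the call points to.

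Control reads had a like median density over the members and other regions. The 1 IgG library with reads, from a male liver of an earlier record, averaged 4.38 reads per kb over the autosomes, and the median density relative to that was 0.953 in members and 1.06 in regions with neither repressive mark. Densities above 2 were seen at 16 of 139 members (11.5%) and at 7.17% of regions with neither mark. Those 16 comprised 15 of the 103 members without H3K27ac and 1 of the 36 with it. Without them, 123 members remained, with H3K27ac in both sexes at 22.8% and H3K36me3 at 57.7%.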

How the data were processed

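The authors deposited 1 peak list per mark and sex, the same for each of its libraries; the 12 lists were used as pooled lists without replicate spread. Reads were aligned with Bowtie to mm9 and islands called with SICER 1.1, per the submitters' processing notes; per the labels, SICER ran at 400 bp (window) and 2400 bp (gap) on H3K9me3 and H3K27me3, and at 200 and 800 bp on H3K36me3. H3K4me3, H3K4me1 and H3K27ac lists have MACS column names; the MACS version was not stated. Per the file headers, lists hold raw tag or read counts, a fold ratio over control, p-values or a score that is a multiple of −log10 p, a false discovery rate (percent in MACS-type lists), and a log2 ratio of male over female with its p-value and call, all the authors'. In the H3K27ac lists some deposited tag counts and scores carry 3 significant digits.

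The members and the gene lists were chosen with earlier results of these data known. Peaks sharing at least 1 bp were joined with Python 3.11.15, pandas 2.3.3 and numpy 2.4.6, and checked on simulated intervals; exact Clopper-Pearson 95% intervals used scipy 1.17.1. Reads inside lists totalled 5087982 (male) and 5084261 (female) for H3K4me3, and 1526754 (male) and 2490730 (female) for H3K9me3; intervals cover counting error only. Named members are, by the lower of both sexes' values, the 8 with the highest H3K9me3 fold and the 8 with most H3K4me3 tags, up to 10 with an authors' call for either mark, those whose placed promoter belongs to a gene list, and the 5 deepest in H3K9me3 islands in the sex with the shorter distance; others named were chosen after their values were seen. The RefSeq promoter table (GRCm38.p6) was placed in mm9 by exact matches of whole 35-base IgG reads, which placed 14584 of 32851 promoters; no coordinates were converted.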

Additional observations from a re-analysis of the deposited data

How the results depend on the processing

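No paired analysis was possible because each mark and sex has 1 pooled list, and single libraries could not be left out for the same reason. The number of members, 139, stayed between 93 and 125 under 6 of 9 alternatives. It was 20 with the better-scoring 50% of H3K4me3 peaks, 83 with lists of equal length and 31 with peaks at a false discovery rate of at most 5%, the last chosen after seeing the data. With those 20 members H3K27ac stood at 100%, H3K4me1 at 100%, H3K36me3 at 25% and all 3 marks at 25%; with those 31 the values were 83.9%, 77.4%, 32.3% and 16.1%. Asking for at least 50% of the peak inside H3K9me3 gave H3K27ac at 11.3%, H3K4me1 at 10.5% and all 3 marks at 0.806%, and the whole peak inside gave 8.7%, 7.83% and 0%. The 50% of H3K9me3 islands with the highest fold gave H3K27ac and H3K4me1 at 13.8% each. Male and female peaks overlapping by at least 50% of each gave H3K27ac at 29.0%, H3K4me1 at 30.1% and H3K36me3 at 43%. Other shares stayed within the 95% intervals of the values reported; the cause of the moves was not tested. The median IgG density ranged from 0.804 to 0.994. Centring the log2 ratios on the median of all regions gave 6 H3K4me3 calls (against 7) and 3 H3K9me3 calls (against 2). The 103 members without H3K27ac had H3K4me3 peaks with medians of 49 (male) and 36 (female) tags, and the part of sequencing depth was not tested.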
